A study of Mus musculus with 19 samples.

Results

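Chaperonins are double-ring protein chambers in which newly made proteins fold. The genes described here are the 8 that encode the subunits of the cytosolic chaperonin CCT (Tcp1, Cct2, Cct3, Cct4, Cct5, Cct6a, Cct7 and Cct8) and the 2 that encode the mitochondrial chaperonin HSP60 (Hspd1) and its lid HSP10 (Hspe1). They were taken by symbol from the deposited tables of a mouse regulatory T cell (Treg) study, and all 10 were found among the 14290 genes with values in one table and the 14818 in the other. The study sequenced RNA of YFP-positive Tregs in 19 libraries of 9 groups, to ask what genetic loss of the NF-kB subunits c-Rel and p65, or a drug, does to the Treg transcriptome. All mice were C57Bl/6 and carried Foxp3-CRE-YFP, so the Cre recombinase was made in cells that express Foxp3, the factor that defines Tregs. WT mice had no floxed allele, c-Rel-deficient mice added c-Rel F/F and p65-deficient mice added p65 F/F. The labels give no age or sex and do not say whether replicates are separate animals. The p-values below therefore reflect only how far libraries of the same group lie apart, which may be technical. In the limma fits this spread was pooled over all groups of a table and moderated over its genes.

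In the first table, 6 libraries came from Tregs stimulated for 16 hours with plate-bound anti-CD3 (5 ug/mL), soluble anti-CD28 (1 ug/mL) and IL-2 (10 ng/mL). A pair of libraries came from WT cells given water, the diluent. The other pairs came from WT cells given 500 ug/mL pentoxifylline, a methylxanthine that inhibits phosphodiesterases, and from c-Rel-deficient cells. The second table held 13 libraries of untreated Tregs whose RNA was extracted straight after the sort. Resting Tregs (rTreg) were sorted as CD44lo and activated Tregs (aTreg) as CD44lhi, as the labels spell it, with a further surface marker, and each came from WT, p65-deficient and c-Rel-deficient mice. WT aTregs had 3 libraries and every other sorted group had 2.

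CCT is built of 8 different but related subunits, each at a fixed place in the ring, and a complete ring needs all of them. Its best known clients are actin and tubulin, which cannot fold without it, and it also folds many proteins of the WD40 repeat family. HSP60 works in the mitochondrial matrix, where it folds imported proteins under a cap of HSP10. When T cells are activated they grow and divide, and the demand for protein folding rises in the cytosol and in mitochondria. The heat shock factor HSF1 can drive HSP60 and HSP10 from one shared control region under protein stress.

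Hspd1 and Hspe1 are neighbours that point away from each other. In GENCODE vM21 (GRCm38, the assembly also called mm10), Hspd1 lies at chr1:55077835-55088243 on the minus strand and Hspe1 at chr1:55088132-55091307 on the plus strand, so that the genes overlap by 112 bases. RefSeq (GRCm38.p6) places the start of Hspe1 95 bases from one start of Hspd1 and 216 bases from the other. The CCT genes are scattered over the genome. Tcp1 lies at chr17:12915701-12925067 (plus), Cct2 at chr10:117051001-117063814 (minus), Cct3 at chr3:88297116-88321767 (plus) and Cct4 at chr11:22990519-23003780 (plus). Cct5 lies at chr15:31590800-31601804 (minus), Cct6a at chr5:129786998-129846371 (plus), Cct7 at chr6:85451514-85468475 (plus) and Cct8 at chr16:87483326-87495873 (minus). Promoter windows, from 250 bases before to 50 after a gene's start, were found in RefSeq for 9 of the 10 genes, in 12 windows. Those of Hspe1 (chr1:55087898-55088197, plus), Cct3 (chr3:88296885-88297184, plus), Cct6a (chr5:129787106-129787405, plus) and Cct2 (chr10:117063803-117064102, minus) are printed. The first is shared in large part with Hspd1, the gene that fell most with the drug. Cct3 and Cct6a are the CCT genes that fell most with it, and Cct2 the one that fell least among those with a window. Capitals mark heat shock elements (GAANNTTC or TTCNNGAA) and CCAAT boxes (CCAAT or its reverse complement ATTGG).
Hspe1: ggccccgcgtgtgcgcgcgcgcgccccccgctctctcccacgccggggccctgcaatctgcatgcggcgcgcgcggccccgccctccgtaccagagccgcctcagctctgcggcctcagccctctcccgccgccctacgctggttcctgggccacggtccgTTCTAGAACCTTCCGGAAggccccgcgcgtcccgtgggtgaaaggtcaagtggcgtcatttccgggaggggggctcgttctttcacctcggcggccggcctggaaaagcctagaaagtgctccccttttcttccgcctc
Cct3: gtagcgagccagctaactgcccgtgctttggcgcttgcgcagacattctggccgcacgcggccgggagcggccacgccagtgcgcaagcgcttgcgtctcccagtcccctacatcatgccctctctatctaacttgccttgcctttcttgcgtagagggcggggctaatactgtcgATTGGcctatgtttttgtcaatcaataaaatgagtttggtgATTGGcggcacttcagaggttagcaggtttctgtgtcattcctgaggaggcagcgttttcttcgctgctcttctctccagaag
Cct6a: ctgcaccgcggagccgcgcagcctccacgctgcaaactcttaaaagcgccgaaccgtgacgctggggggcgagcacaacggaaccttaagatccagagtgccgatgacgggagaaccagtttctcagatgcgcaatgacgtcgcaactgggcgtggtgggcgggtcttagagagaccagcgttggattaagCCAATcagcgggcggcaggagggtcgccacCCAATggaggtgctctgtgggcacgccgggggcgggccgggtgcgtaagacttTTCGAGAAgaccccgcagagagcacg
Cct2: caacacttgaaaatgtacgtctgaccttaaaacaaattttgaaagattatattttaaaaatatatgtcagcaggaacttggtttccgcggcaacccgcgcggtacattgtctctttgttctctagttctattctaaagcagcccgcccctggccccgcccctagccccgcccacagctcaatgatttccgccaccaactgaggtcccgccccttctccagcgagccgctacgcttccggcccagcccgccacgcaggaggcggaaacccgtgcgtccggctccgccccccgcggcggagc
The capitals in the Hspe1 window are 3 overlapping heat shock elements, TTCTAGAA, GAACCTTC and TTCCGGAA, whose first bases lie at -89, -84 and -79 from the Hspe1 start. The same bases stand in one of the windows of Hspd1, read from the other strand.

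A heat shock element of at least 1 copy was found in 5 of the 12 windows, in Hspd1, Hspe1, Cct2, Cct5 and Cct6a, against 15.1% of all 32851 mouse windows (both strands searched here and below). In Cct2 it lay in the second window, not the one printed. The elements of Hspd1 and Hspe1 are the same bases, so they are counted in both windows. The counts of the GC box and the ETS core below also take in this shared stretch in both windows. CCAAT boxes were in 5 windows (37.4% of all windows), among them Cct3 and Cct6a with a pair each and Cct7 with 3 copies. The GC box GGGCGG was in 11 of 12 windows (35.7%), and the ETS core CGGAAG in 6 (16.9%), some of them inside the heat shock elements. No window held TATAAA (13.6%) or the cAMP response element TGACGTCA (1.79%). The NF-kB consensus matched the Hspe1 window and the window of Hspd1 that mirrors it (8.46%), in a stretch that overlaps the last heat shock element. The windows had a median GC content of 63.5%, against 52.7% of all windows. These are matches of letters, not measured binding.

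The values are RPKM, read counts divided by gene length and by library size, so that levels can be compared between genes within a table. The tables were normalised separately and no level is compared between them. A member's RPKM falls alike when fewer cells express it and when each cell holds less of its RNA, which bulk RNA cannot tell apart. Differences were fitted in limma over all genes of a table with at least 1 RPKM in 2 libraries, as differences of log2(RPKM + 0.5), and a gene was called at a Benjamini-Hochberg adjusted p under 0.05. That gave 9945 genes in the stimulated and 10656 in the sorted table, and all 10 members passed in both. Read depth could be compared between the stimulated libraries only, where it ran from 0.682 to 1 relative to the first water library, with the 2 pentoxifylline libraries lowest (0.793 and 0.682). The c-Rel gene Rel stood at 55.1 and 55.8 RPKM with water, and at 2.44 and 24.96 in the libraries labelled c-Rel-deficient, so c-Rel-deficient replicate 2 kept a good part of the transcript. In sorted cells Rel was 10.9 to 22.0 RPKM in WT and 1.39 to 5.37 in c-Rel-deficient libraries. Rela, which encodes p65, was 46.8 to 69.4 RPKM in p65-deficient and 62.3 to 71.5 in WT sorted libraries, so its transcript level does not check that label in rTregs, where 69.4 lay above the lower WT value of 69.0. Foxp3 was 107 to 290 RPKM in stimulated and 28.1 to 102 in sorted libraries. The summed RPKM of 6 B cell markers, 5 myeloid markers and the erythroid markers listed in a table (2 or 3 of 4) was at most 24.1, 6.83 and 7.01 in any library, and none of those listed was at 0 in every library.

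In stimulated WT Tregs given water the chaperonin genes had means from 160 RPKM (Hspd1) to 387 RPKM (Cct5). No unstimulated cells were part of this set, so no effect of stimulation can be read from these levels. All 10 genes were lower with pentoxifylline, and 9 of them were called. Hspd1 fell most and Cct4, which did not pass the test, least. Members called lower were 9 of 10, where 23.9% of the 9945 genes tested were called lower and 1950 genes were called higher. The median log2 difference was -1.35 over the 10 members and 0.00 over all genes. The scaling of this table holds the median over all genes near 0. In every member both pentoxifylline libraries lay below both water libraries, which held for 38.3% of all genes tested.

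**Figure D1:**
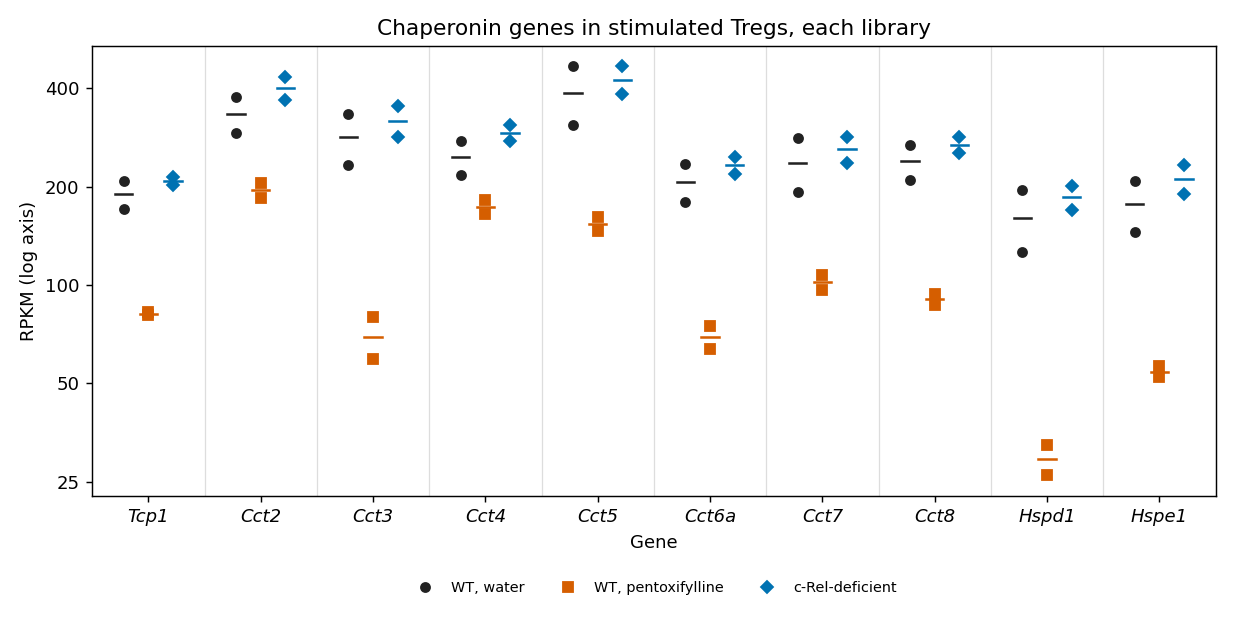
RPKM (log axis) of each chaperonin gene in each library of stimulated Tregs, for water (WT), pentoxifylline (WT) and c-Rel-deficient cells (points are libraries, short lines are means of 2). The pentoxifylline libraries lie below both other groups in all 10 genes, with Hspd1 at 26.2 and 32.5 RPKM.

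The mitochondrial pair moved as follows. Hspd1, the HSP60 chamber itself, was 126 and 195 RPKM in the water libraries and 26.2 and 32.5 in the pentoxifylline libraries. The mean with water was 5.47 times that with the drug, and the log2 difference was -2.41 (SE 0.23, limma, Benjamini-Hochberg adjusted p = 0.000687). Only 1.13% of the genes tested had a lower difference. Hspe1, the HSP10 lid, was 145 and 209 RPKM with water and 52.1 and 56.5 with pentoxifylline, a log2 difference of -1.67 (SE 0.20, limma adjusted p = 0.00125). The groups did not overlap in either gene, and the fall of Hspd1 was the larger. Counting that ignores strand cannot separate reads in the 112 bases that the genes share, and the strand setting was not given in the sources used here. The annotation also holds 5 named processed pseudogenes of Hspd1 and 6 of Hspe1, whose near-identical reads could be split from or added to these values. The same limits hold for some CCT genes described below. Tcp1, Cct6a, Cct7 and Cct8 overlap genes on the opposite strand, Tcp1 by 1255 bases with Acat3. Tcp1 and Cct3 each have a named processed pseudogene.

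The lid and the chamber therefore stood in another proportion with the drug. The ratio of Hspe1 to Hspd1 RPKM was 1.15 and 1.07 in the water libraries, 1.12 and 1.15 in the c-Rel-deficient libraries, and 1.99 and 1.74 in the pentoxifylline libraries. The drug libraries lay apart from all others of the table. An exact permutation test of the log2 ratio between drug and water (two-sided) gave p = 0.333, which is the smallest that 2 against 2 libraries allow.

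In the CCT ring, biochemical work places Tcp1, Cct4, Cct2 and Cct5 side by side, on the arc whose subunits bind ATP tightly, and Cct7, Cct8, Cct6a and Cct3 on the opposite arc. On the first arc, Tcp1 was 170 and 208 RPKM with water and 80.7 and 82.5 with pentoxifylline (log2 difference -1.20, SE 0.15, limma adjusted p = 0.00139). Cct5, the most abundant member in the mean of the water libraries, was 309 and 466 with water and 146 and 161 with the drug (-1.30, SE 0.23, limma adjusted p = 0.00435). Cct2 was 293 and 376 with water and 205 and 185 with the drug (-0.77, SE 0.19, limma adjusted p = 0.0157). All of these groups were apart, by the least in Cct2. The call of Cct2 depended on single libraries: without pentoxifylline replicate 1, pentoxifylline replicate 2 or water replicate 2 the limma adjusted p was 0.0614, 0.0848 or 0.0797. Cct4 was 218 and 275 RPKM with water and 182 and 165 with the drug, a log2 difference of -0.50 (SE 0.17, 95% interval -0.91 to -0.09) with a limma adjusted p of 0.0537. It passed when water replicate 1 was left out (-0.67, adjusted p = 0.0335).

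On the opposite arc, Cct3 was 234 and 334 RPKM with water and 59.5 and 79.6 with pentoxifylline. This was the largest fall of a CCT subunit (log2 difference -2.01, SE 0.23, limma adjusted p = 0.0011), and the water mean was 4.08 times the drug mean. Cct6a was 179 and 235 with water and 63.6 and 75.0 with the drug (-1.56, SE 0.18, limma adjusted p = 0.0011). In both genes the higher drug library stood well under the lower water library. Cct8 was 210 and 269 with water and 86.8 and 94.0 with the drug (-1.39, SE 0.17, limma adjusted p = 0.00129). Cct7 was 193 and 281 with water and 96.9 and 107 with the drug (-1.19, SE 0.21, limma adjusted p = 0.00444). The differences ran from -0.50 to -1.30 on the ATP-binding arc and from -1.19 to -2.01 on the other, so the ranges overlapped and no test between arcs was made.

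**Figure D2:**
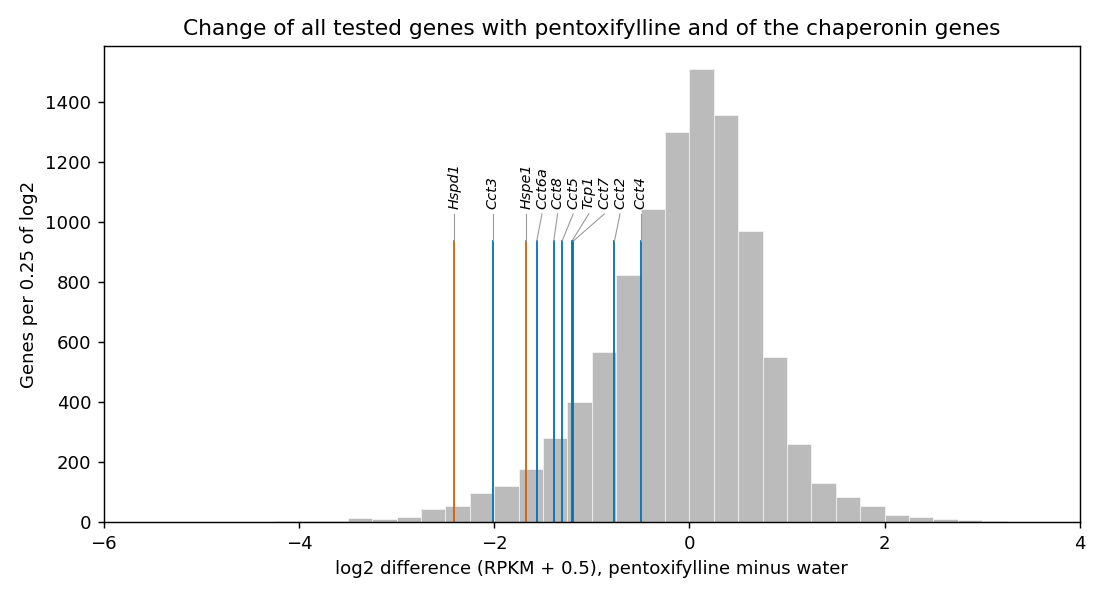
Number of tested genes (bars, 0.25 of log2 each, 9945 genes) by log2 difference between pentoxifylline and water libraries, with the CCT genes as blue lines and Hspd1 and Hspe1 as orange lines. All 10 lines lie left of 0, from Hspd1 at -2.41 to Cct4 at -0.50.

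The unequal falls changed the proportions of the CCT transcripts although every subunit enters the same ring. The summed RPKM of the 8 subunits was 1804 and 2445 with water and 921 and 949 with pentoxifylline. Of this sum Cct3 made up 12.9% to 13.7% with water and 6.47% to 8.38% with the drug, whereas Cct4 made up 11.2% to 12.1% and 17.4% to 19.7%. Tcp1 stayed at 8.53% to 9.44% with water and 8.69% to 8.77% with the drug. The ratio of Cct3 to Cct4 RPKM was 1.07 and 1.22 in the water libraries, 1.14 and 1.03 in the c-Rel-deficient libraries and 0.328 and 0.482 in the pentoxifylline libraries. Cct3 and Cct4 were set against each other after these values were seen, because their falls were the largest and the smallest of the 8. Their ratio is therefore a description, and a test of it on the same libraries is not reported. The most abundant subunit stood at 1.81 to 2.24 times the least abundant with water and at 2.47 to 3.45 times with the drug.

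**Figure D3:**
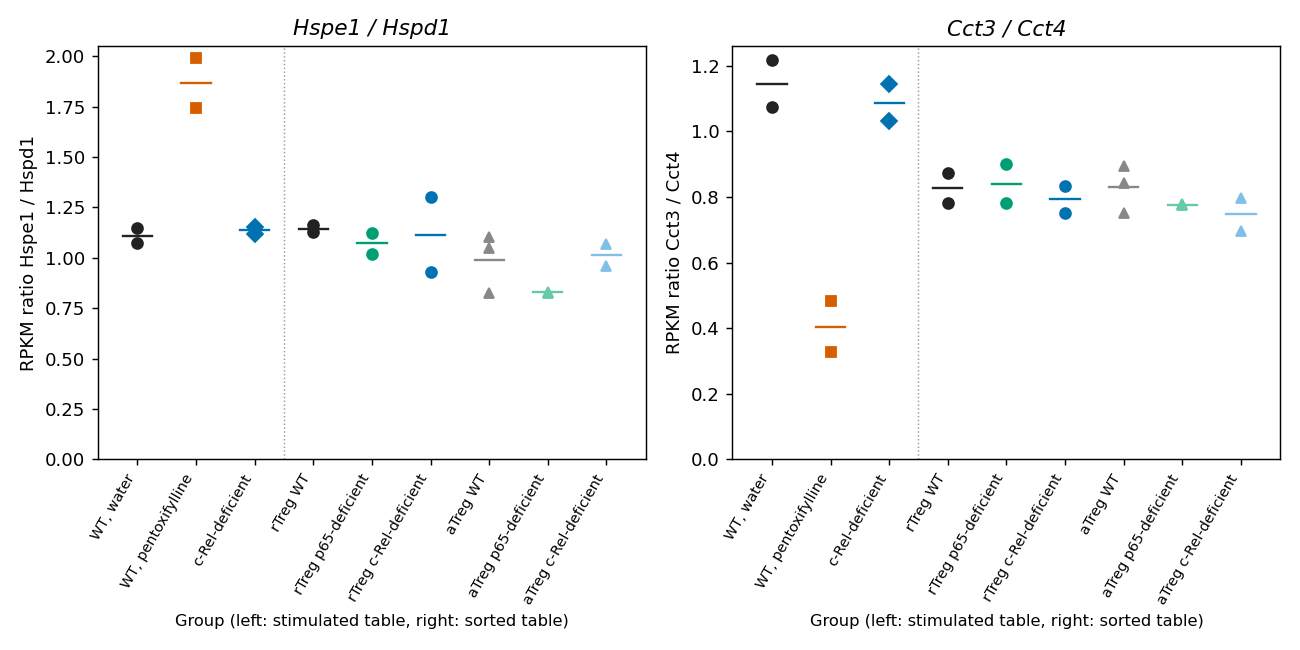
RPKM ratio of Hspe1 to Hspd1 (left panel) and of Cct3 to Cct4 (right panel) in each of the 19 libraries by group (points are libraries, short lines are means, both axes start at 0). The 2 pentoxifylline libraries lie apart from the other stimulated libraries in both panels, at 1.74 and 1.99 and at 0.328 and 0.482.

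The authors' deposited table holds fold changes of its own for the drug. After Benjamini-Hochberg adjustment of its p-values it calls 9 of the 10 members lower, where 12.9% of its genes are lower. In the authors' deposited table Cct4 again misses the threshold, at -0.45 on the log2 scale with an adjusted p of 0.142, and Hspd1 stands at -2.42.

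Other genes of the folding pathway were counted from lists written from general knowledge of it. These lists, like the members, were chosen with earlier results of these data known. Their counts beside the background are therefore descriptions. Of 7 tested prefoldin and phosducin-like genes, which hand unfolded clients to CCT or modulate it, 4 were called lower with the drug and 0 higher, and the prefoldin subunit Pfdn4 fell most (log2 difference -1.21, SE 0.14, limma adjusted p = 0.0011). Of 14 genes for clients of CCT, 5 were lower and 2 higher. Over all genes tested 23.9% were called lower, and 29.8% of the 1790 genes with a mean of at least 50 RPKM, so 5 of 14 lies near the background. Among these Tuba1c, an alpha-tubulin, fell by 1.97 (SE 0.21, limma adjusted p = 0.000859), and Tubb2a, a beta-tubulin, rose by 1.15 (SE 0.16, limma adjusted p = 0.0019). Tubulin thus went both ways, and the list median was -0.44. Tbcd was the only one of 5 tubulin cofactors called (-0.90, SE 0.20, limma adjusted p = 0.00964), a share no higher than that over all genes.

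Among 12 genes of the mitochondrial HSP70 system and the matrix proteases, which act beside HSP60, 8 were called lower and 1 higher (list median -0.73). The background shares called lower, here and below, were 23.9% of all genes and 29.8% of those with a mean of at least 50 RPKM. Trap1, the mitochondrial HSP90, fell most (-1.53, SE 0.16, limma adjusted p = 0.000798), and Hscb, a co-chaperone of iron-sulfur cluster assembly, was the one that rose (0.66, SE 0.14, limma adjusted p = 0.0099). Of 19 tested genes of the cytosolic HSP70 and HSP90 system, 12 were called lower and 0 higher (list median -0.71). Hsph1, a nucleotide exchange factor of HSP70, fell most (-2.13, SE 0.18, limma adjusted p = 0.000582). The system did not move as one, since 15 of the 19 lay below 0 and 4 above it. Among the 4 was Bag3, a co-chaperone of HSP70, at 10.6 and 11.1 RPKM with water and 12.0 and 13.6 with the drug. Of the chaperonin paralogs, Cct6b and Cct8l1 stayed under 1 RPKM on average in all groups and were not tested. Bbs12, a chaperonin-like protein of the cilium, fell by 1.22 (SE 0.19, limma adjusted p = 0.00297). The median of each of these 6 lists lay below that of all genes, 0.00.

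Marker genes of Treg state differed between the same libraries. The summed RPKM of 5 activation markers (Cd44, Icos, Tnfrsf9, Klrg1 and Itgae) was 1447 to 1556 with water and 1965 to 2634 with the drug. Most of this difference was Tnfrsf9, a costimulatory receptor, at 1090 to 1215 RPKM with water and 1625 to 2244 with the drug. The markers did not move as one, since Cd44 was 57.4 to 67.2 with water and 41.1 to 42.2 with the drug, and Itgae was 22.9 to 23.5 and 10.3 to 13.4. Genes typical of resting T cells were higher with the drug. Klf2, a transcription factor of quiescent T cells, was 142 to 153 RPKM with water and 533 to 587 with the drug. S1pr1, a receptor for exit from lymphoid organs, was 88.2 to 90.5 and 329 to 349, and Ccr7, a homing receptor, was 285 to 364 and 623 to 639. The sum of 6 Treg and T cell markers was 2225 to 2332 with water and 1595 to 1957 with the drug. Nearly all of that difference was Il2ra, the alpha chain of the IL-2 receptor, at 842 to 850 RPKM with water and 313 to 451 with the drug, while Foxp3, Ikzf2, Ctla4, Cd4 and Cd3e overlapped between the groups. These markers were chosen for naming after their values were seen, and all of them were detected. Their part in the fall of the chaperonin genes was not tested, nor was that of the lower depth of the drug libraries.

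With loss of c-Rel in stimulated cells 0 of the 10 chaperonin genes were called. All 10 had a log2 difference from WT with water above 0, from 0.14 (Tcp1) to 0.27 (Hspe1), with limma adjusted p from 0.769 to 0.859. The median was 0.18 over the members and 0.06 over all genes tested, of which 40.2% were below 0. Over the 1790 genes with a mean of at least 50 RPKM it was 0.10. Called genes were 0% of the 9945 tested, with 791 at an unadjusted p under 0.05. Rel itself was thus not called, at 2.44 and 24.96 RPKM against 55.1 and 55.8 with water. A count of 0 members therefore does not show that their levels were unchanged. The 95% intervals of the members reached from -0.38 to 0.77. Hspd1 was 201 and 169 RPKM in the c-Rel-deficient libraries and 126 and 195 with water, so the groups overlapped. They were apart in 1 of 10 members (24.2% of all genes were higher without overlap), Cct4, with 308 and 275.3 against 218 and 274.9 RPKM. The authors' deposited table calls 0 of the 10 members, where 2.14% of its genes are called.

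The sign of this comparison rested on 1 control library. Water replicate 2 stood above water replicate 1 in all 10 members (median log2 difference 0.45, against 0.05 over all genes). Without water replicate 1 the difference was below 0 in 7 members, down to -0.14 in Cct5. Without c-Rel-deficient replicate 2, which kept Rel, the median over the members was 0.32 and 0 were called, and without c-Rel-deficient replicate 1 the median was 0.10. The same control pair enters the drug comparison, whose median moved to -1.58 without water replicate 1 and to -1.13 without water replicate 2.

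Set against each other directly, the drug-treated WT and the c-Rel-deficient cells differed in every member. Members called lower with pentoxifylline were 10 of 10, where 26.8% of the genes tested were called lower, and the groups did not overlap in any member (39.5% of all genes were lower without overlap). The log2 differences ran from -0.75 in Cct4 (SE 0.17, limma adjusted p = 0.0112) to -2.64 in Hspd1 (SE 0.23, limma adjusted p = 0.000341). Without c-Rel-deficient replicate 2, which kept Rel, all 10 were called. Cct4 lost its call without c-Rel-deficient replicate 1 (adjusted p = 0.0661) or pentoxifylline replicate 2 (0.0639). This comparison shares the drug libraries with the one against water.

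**Figure D4:**
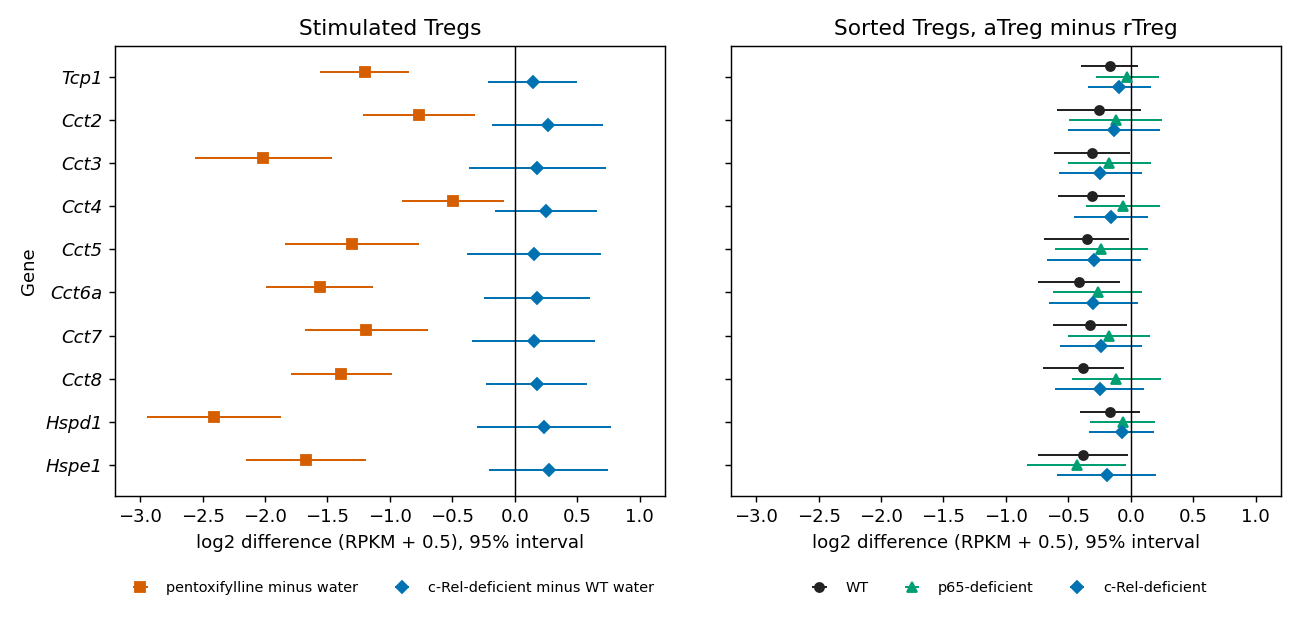
Log2 difference of RPKM + 0.5 (points) with the 95% interval from limma (lines) for each chaperonin gene, in stimulated Tregs (left panel, pentoxifylline or c-Rel deficiency against WT with water) and between aTregs and rTregs of each genotype (right panel). The drug moved the genes by -0.50 to -2.41, while the aTreg differences stay between -0.43 and -0.03.

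In freshly sorted Tregs the chaperonin genes varied little. The deposited values of this table are RPKM after an adjustment that its headers do not describe, with 2.54% of values below 0, and the spread between replicates is that of adjusted values. Differences between replicate numbers, averaged over the groups, were smaller than unrelated numbers would give (SD over genes 0.0982 against 0.143), so the adjustment may have removed differences between numbers. If it did, the spread within groups is understated, and the p-values of this table would be too small. The group means of a member differed by 1.12 to 1.46 times between the highest and the lowest of the 6 groups. Cct5 was the highest of the 10 members in all 13 libraries, at 173 to 271 RPKM, and Cct3 was sixth in all of them. Tcp1 and Cct7 were the lowest CCT subunits, with Cct7 between 4.90% and 5.25% of the CCT sum. The most abundant subunit stood at 4.17 to 4.96 times the least abundant, and this ratio cannot be set beside that of the stimulated table. In 9 of the 10 members, all but Tcp1, every rTreg group mean lay above every aTreg group mean. Neighbouring groups in this order overlapped in 45 of 50 pairs, and WT aTregs were lowest in 8 members.

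**Figure D5:**
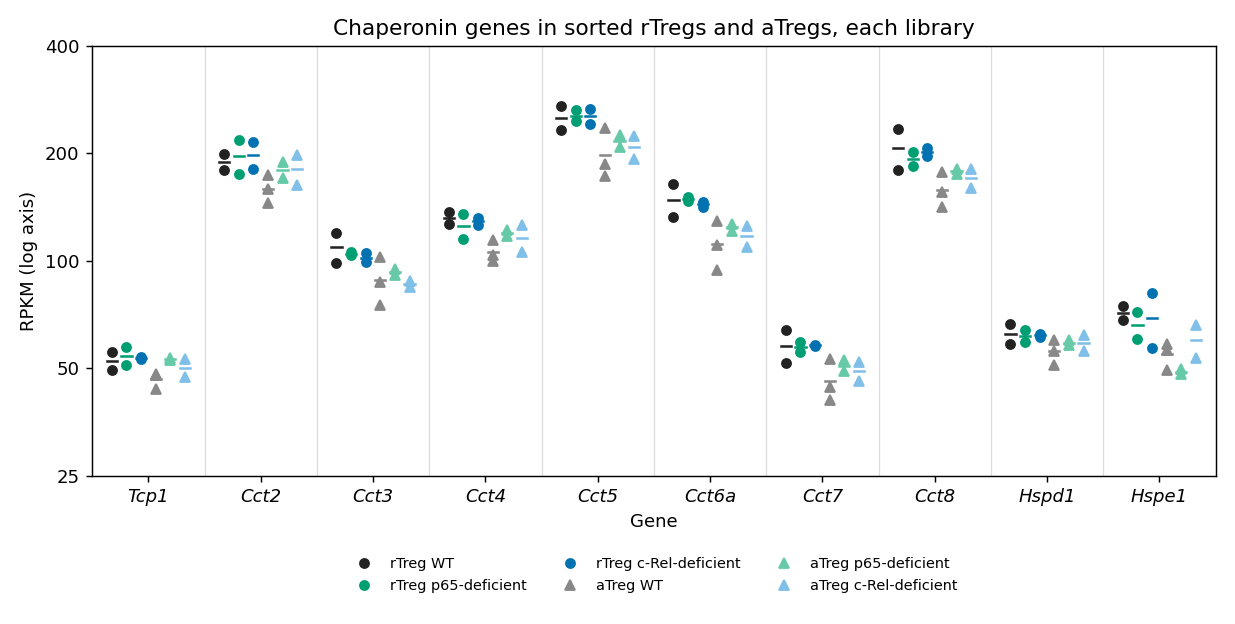
RPKM (log axis) of each chaperonin gene in each sorted library, with circles for rTregs and triangles for aTregs of WT, p65-deficient and c-Rel-deficient mice (short lines are means of 2, or of 3 in WT aTregs). The 6 groups lie close together in every gene, with Cct5 highest at 173 to 271 RPKM.

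Between WT aTregs and WT rTregs all 10 members were below 0, and none was called. Members called lower were 0 of 10, where 4.68% of the 10656 genes tested were called lower. An unadjusted p under 0.05 in limma was found for 7 members and for 3553 of all genes tested. Cct6a differed most, with 164 and 133 RPKM in the rTreg libraries and 94.5, 111 and 129 in the aTreg libraries (log2 difference -0.41, SE 0.15, limma adjusted p = 0.0838). Its aTreg libraries all lay below its rTreg libraries, by little. Cct8 was 235 and 179.5 in rTregs and 141, 156 and 177.6 in aTregs (-0.38, SE 0.15, limma adjusted p = 0.104). Hspd1 differed least, with 66.4 and 58.6 in rTregs and 51.1, 60.2 and 55.8 in aTregs (-0.17, SE 0.11, limma adjusted p = 0.301), and there the groups overlapped. The groups were apart in 6 of 10 members, against 21.9% of all genes with aTregs lower.

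Other strongly expressed genes were also lower in aTregs in the median. The median was -0.32 over the members, -0.06 over all genes tested and -0.20 over the 1512 genes with a mean of at least 50 RPKM. Single libraries decided whether members were called: 3 passed without rTreg WT replicate 2 (Cct6a, Cct7 and Cct8) and 4 without aTreg WT replicate 3 (Cct3, Cct5, Cct6a and Cct7). That aTreg library stood above aTreg replicate 1 in all 10 members, and rTreg replicate 1 above rTreg replicate 2 in all 10. The authors' deposited table calls 0 of the 10 members, where 11.2% of its genes are called, and Cct4 comes nearest (-0.48, adjusted p = 0.056). The sum of the 5 activation markers was 127 to 172 RPKM in WT rTregs and 347 to 679 in WT aTregs, so it followed the labels. Each of the 5 was higher in every WT aTreg than in every WT rTreg library, and one of them, Cd44, encodes a protein of the gate. Klf2 was 295 to 304 RPKM in WT rTregs and 83.8 to 191 in WT aTregs. The part of the markers in the chaperonin differences was not tested.

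aTregs minus rTregs in the other genotypes had the same sign in all 10 members, as did the median of strongly expressed genes. In p65-deficient cells the median was -0.15 over the members and -0.14 over the genes with a mean of at least 50 RPKM. In c-Rel-deficient cells these medians were -0.21 and -0.11. In p65-deficient cells 0 members were called (0.385% of all genes were called lower) and the differences ran from -0.43 in Hspe1 to -0.03 in Tcp1. Hspe1 was 60.5 and 72.1 RPKM in p65-deficient rTregs and 48.0 and 49.7 in aTregs (SE 0.18, limma adjusted p = 0.195). The groups were apart in 6 members (37.0% of all genes). In c-Rel-deficient cells 0 members were called (0% of all genes, with 1494 at an unadjusted p under 0.05), the differences ran from -0.30 in Cct6a to -0.07 in Hspd1, and 6 members were apart (30.2% of all genes). The interaction terms, which test whether aTreg minus rTreg differed from WT, called 0 members and 0% of all genes for p65 and for c-Rel. Their members ranged from -0.05 to 0.26 and from 0.06 to 0.19, with 237 and 497 genes at an unadjusted p under 0.05.

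Loss of p65 or c-Rel left no called difference in the chaperonin genes of sorted cells. In rTregs the members differed from WT by -0.11 to 0.04 without p65 and by -0.09 to 0.06 without c-Rel. In aTregs they differed by -0.16 to 0.18 without p65 and by -0.03 to 0.18 without c-Rel. In each of these comparisons 0 members and 0% of the 10656 genes were called by limma, with 365 to 775 genes at an unadjusted p under 0.05. Rel itself was thus not called without c-Rel, at 1.39 to 5.37 RPKM against 10.9 to 22.0 in WT. The 0 called members therefore do not show that their levels were unchanged. The widest 95% interval ends were -0.52 and 0.52. In aTregs without p65 the groups were apart in 2 of 10 members, Tcp1 and Cct4 (9.89% of all genes were higher without overlap), Tcp1 with 52.7 and 53.3 RPKM without p65 against 43.7, 47.8 and 48.3 in WT. The direct comparisons of p65-deficient with c-Rel-deficient cells also had 0 members and 0% of genes called, in rTregs (-0.07 to 0.05) and aTregs (-0.28 to 0.11), with 215 and 634 genes at an unadjusted p under 0.05. The authors' deposited table calls 0 members without p65 (0.0337% of its genes in rTregs, 0.195% in aTregs) or without c-Rel (0.0270% and 0.519%).

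Of the pathway lists, few genes differed between WT aTregs and rTregs. Tubb2a, whose protein CCT folds, was lower in aTregs (-1.82, SE 0.48, limma adjusted p = 0.0387) and was 1 of 2 client genes called lower of 14. Bag3, a co-chaperone of HSP70 induced by protein stress, was higher (0.99, SE 0.23, limma adjusted p = 0.0294). In the prefoldin, tubulin cofactor, mitochondrial HSP70 and paralog lists 0 genes were called. Since 4.68% of the 10656 genes tested were called lower and 803 genes higher, lists this short would hold few or no called genes at the background share.

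Some other genes had profiles over the libraries close to the mean profile of the chaperonin genes. Closeness was the root-mean-square difference between centred log2 profiles, over genes with a mean of at least 5 RPKM. Over the 6 stimulated libraries Kars, a lysyl-tRNA synthetase, lay nearest to the CCT mean (0.0235), followed by Fcf1, Ppie, Taf9 and Abcf2 (up to 0.0438), of 7794 genes whose median was 0.665. The CCT genes themselves lay between 0.0535 and 0.376. The named genes were picked as the nearest of 7794, so their closeness reflects that choice. Among the nearest to the mean of Hspd1 and Hspe1 were Znhit6, Nsun2, Pus1 and Tomm40 (0.0501 to 0.0645). Over the 13 sorted libraries the nearest to the CCT mean were Polr3c, Hspa8, Ube2g1, Clp1 and Pdha1, starting at 0.0312, where the CCT genes lay between 0.0274 and 0.087 and all 7882 genes had a median of 0.212. All profiles of a table share its libraries and their normalisation.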

How the data were processed

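Total RNA libraries were made with a TruSeq kit, per the labels. STAR, mm10 and DESeq2 1.10.1 stand in the submitters' processing notes, with no role or order. The authors deposited RPKM per library in 1 table per set, beside their own log2 fold changes and p-values, per the file headers. Decimal commas were read as points. Entries with a date for a symbol and no library values (20 stimulated, 21 sorted) were left out. How reads were assigned to genes or strands is not given in the sources used here.

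The stimulated RPKM have median-of-ratios factors of 1.01 in every library. Their relative depth was taken from the worth of single reads, with 85.0% of 2416 genes under a mean of 0.1 RPKM whole in every library within 0.02. Depth in the sorted table is unknown. There the mean difference between replicate numbers 2 and 1 over 5 groups had an SD of 0.0982 over 9295 genes, below the 0.143 that unrelated single differences (SD 0.319) would average to. In the stimulated table it was 0.216 against 0.188. The sorted values may thus have been adjusted for replicate number, in a way not stated, which would make their p-values too small.

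Values below 0 were set to 0 and 0.5 was added before log2. Genes of at least 1 RPKM in 2 libraries were fitted in limma 3.58.1 with 1 mean per group and a trended empirical Bayes variance (R 4.3.3, statmod 1.5.0), each table within itself. Tests were two-sided, with Benjamini-Hochberg adjustment over all genes tested and a threshold of 0.05, in 14 comparisons. The same adjustment was applied to the authors' p-values. The fits were tested on simulated data. Tables were handled in Python 3.11.15 (pandas 2.3.3, numpy 2.4.6, scipy 1.17.1) and plots drawn in matplotlib 3.10.9. Locations came from GENCODE vM21 and promoter windows from RefSeq.

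The members, the gene lists and the naming rule were chosen with earlier results of these data known. Named were all members, Rel, Rela and Foxp3, the called genes with the largest rise and fall of each list in the drug and the WT subset comparison, and the 5 nearest profiles per mean profile. Some items that this rule or a marker list covers are not reported here. Replicate numbers were not used as pairs. Alternatives were other pseudocounts (0.1 and 1), a filter of 3 RPKM or none, scaling by median of ratios, a robust variance, a fit of the compared groups alone, a replicate block, and leave-one-out over the libraries or without both libraries numbered 3.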

Additional observations from a re-analysis of the deposited data

How the results depend on the processing

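The number of members called was recomputed under every alternative in 14 comparisons. Of the recomputed counts, 280 equalled the reported one or stayed within 1.5 times of it. Most of these were 0 where 0 was reported, so the 280 does not measure how stable the other counts are. Scaling by median of ratios could also change little in the stimulated table, where its factors were 1.01 in every library. The 4 that moved all concern WT aTregs minus rTregs, with 0 reported: a replicate block gave 1, leaving out both libraries numbered 3 gave 2, and leaving out single libraries gave 0 to 4. Single libraries left out gave 8 to 10 members for pentoxifylline minus water, 9 to 10 for pentoxifylline minus c-Rel-deficient, and 0 in the other comparisons. Leaving out 1 library, the c-Rel-deficient minus water difference ranged from -0.00038 to 0.29 in Tcp1, -0.079 to 0.44 in Cct3, -0.14 to 0.45 in Cct5, -0.014 to 0.37 in Cct6a, -0.12 to 0.43 in Cct7, -0.0039 to 0.36 in Cct8 and -0.078 to 0.55 in Hspd1. The low ends are those without water replicate 1, the high ends those without water replicate 2, and the cause was not tested.

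The replicate block left 9 members called for the drug against water, 10 against c-Rel-deficient cells and 0 in each other comparison except WT aTregs minus rTregs. Deviations of same-numbered libraries from their group means correlated at -0.07 to 0.40 in the stimulated and -0.49 to 0.44 in the sorted table, not above 0.1 in every pair, so the numbers were not used as pairs. This does not show that they mark no shared batch: water and pentoxifylline correlated at 0.40, the library numbers in the headers of the sorted table run on within a replicate number, and an adjustment for number would itself lower such correlations. With a library left out, a lone library of a group was assumed to vary like the other groups. Groups of 2 limit the precision throughout, and depth in the sorted table is unknown.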
